A study of Mus musculus with 14 samples.

Results

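The 10 genes described here encode proteins that build and shape the actin-filled processes of osteocytes, and they were chosen by name: Pdpn, Cd44, Fscn1, Pls3, Lcp1, Capg, Dstn, Ezr, Msn and Rdx. All 10 were found among the 39179 genes of the differentiation table and among the 35886 genes summed in the sorted libraries. The libraries came from Ocy454 cells, a mouse line used as a model of osteocytes. The line carries a temperature-sensitive viral antigen, so that cultures are expanded at 33 °C and shifted to 37 °C for differentiation. In the differentiation experiment, cells were held at 37 °C for 1, 7, 10 or 14 days, with 2 biologic replicates per day. In the sorting experiment, cells held at 37 °C for 17 days were labelled with an antibody to CD61, the integrin subunit encoded by Itgb3. Ranked by that label, the uppermost 10% of viable cells made the CD61high group and the lowermost 10% the CD61low group. The day of the sort is that of the labels and the methods, and the results text of the study gives a slightly earlier one. Each gate has 3 replicates, and both gates were drawn from the same 3 independent cell groups. All groups were the same line on tissue culture plastic with no labelled perturbation, so a day or a CD61 gate is the only labelled difference within each experiment.

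Osteocytes reach each other through long dendrites whose core is a bundle of parallel actin filaments. Fascin (Fscn1) and the plastins (Pls3, Lcp1) tie filaments into such bundles, while CapG (Capg) caps filament ends and destrin (Dstn) disassembles filaments. Ezrin (Ezr), radixin (Rdx) and moesin (Msn), the ERM proteins, link filaments to the membrane, where podoplanin (Pdpn, an early osteocyte marker needed for dendrite elongation) and the hyaluronan receptor CD44 (Cd44) are among their partners. PLS3 is also known as a gene of X-linked osteoporosis.

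The promoters of 4 of these genes are shown first, because Pls3 and Fscn1 changed most over differentiation and in opposite directions, and Msn and Ezr moved in opposite directions in both experiments. Each sequence is the RefSeq window (build GRCm38.p6) from 250 bases before to 50 bases after the annotated start, and capitals mark matches on either strand to the core promoter letters TATAAA, the AP-1 motif TGANTCA, the Sp1 motif GGGCGG or a CArG box, the motif of serum response factor. The Pls3 window (chrX:75875133-75875432, minus strand) is the first of 3 listed for that gene. The Fscn1 window is chr5:142960105-142960404 (plus strand), the Msn window chrX:96095795-96096094 (plus strand) and the Ezr window chr17:6782731-6783030 (minus strand).
Pls3: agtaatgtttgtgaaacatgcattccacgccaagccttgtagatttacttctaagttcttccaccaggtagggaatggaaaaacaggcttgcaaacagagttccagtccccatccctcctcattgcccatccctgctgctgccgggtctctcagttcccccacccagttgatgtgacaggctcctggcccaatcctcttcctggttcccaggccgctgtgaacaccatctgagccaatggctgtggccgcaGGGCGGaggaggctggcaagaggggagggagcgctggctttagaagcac
Fscn1: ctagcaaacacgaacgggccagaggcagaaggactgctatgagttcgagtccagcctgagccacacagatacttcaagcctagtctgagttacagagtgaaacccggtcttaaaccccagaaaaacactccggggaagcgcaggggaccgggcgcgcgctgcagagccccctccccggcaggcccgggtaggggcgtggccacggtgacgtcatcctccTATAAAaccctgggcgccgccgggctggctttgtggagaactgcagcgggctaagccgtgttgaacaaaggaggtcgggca
Msn: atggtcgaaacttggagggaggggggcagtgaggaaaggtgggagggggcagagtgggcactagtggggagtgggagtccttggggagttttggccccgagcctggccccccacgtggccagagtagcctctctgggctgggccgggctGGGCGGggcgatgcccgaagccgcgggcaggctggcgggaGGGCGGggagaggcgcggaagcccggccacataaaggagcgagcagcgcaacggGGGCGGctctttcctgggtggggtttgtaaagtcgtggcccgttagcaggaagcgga
Ezr: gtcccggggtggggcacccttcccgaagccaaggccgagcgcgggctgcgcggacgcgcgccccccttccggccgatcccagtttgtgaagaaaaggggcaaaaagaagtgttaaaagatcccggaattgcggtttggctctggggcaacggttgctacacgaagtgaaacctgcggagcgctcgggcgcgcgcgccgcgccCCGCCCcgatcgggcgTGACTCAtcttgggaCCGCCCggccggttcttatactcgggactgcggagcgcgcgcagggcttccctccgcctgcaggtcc

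TATAAA was present once in the Fscn1 window and in no window of the other 9 genes, and 13.6% of all 32851 windows held it. TGANTCA was present once in the Ezr window and in no other window of the set, against 7.81% of all windows. GGGCGG occurred 3 times in the Msn window, 2 times in the Ezr window and once in the Pls3 window, and 9 of the 14 windows listed for the 10 genes held it, against 35.7% of all windows. Fscn1 and Capg had it in no window. No window of the set held a CArG box, which 1.63% of all windows held. No 2 of these 4 motifs overlapped in the printed windows. These matches describe the letters only.

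The differentiation libraries held 27518605 to 34311238 reads and the sorted libraries 18815602 to 19220064 estimated counts, and no library repeated another. Itgb3, the gene behind the sort, measured 5.65 ± 0.408 CPM (reads per library scaled to 1000000, here after TMM scaling, SD, n = 3) in CD61low and 111 ± 16.4 CPM in CD61high cells. Summed over a list of 8 osteocyte markers, the libraries held 135 to 137 CPM on day 1 and 1112 to 1137 CPM on day 14, and 306 to 407 CPM in CD61low and 1184 to 1193 CPM in CD61high cells, with Sp7 the largest part in every group. Of its defining genes, Fgf23 was at 0 on all days, and Mepe and Sost were at 0 on day 1. Lists of other cell types also differed between groups. The 12 macrophage and leukocyte markers summed to 18.8 to 24.1 CPM in CD61low and 13.9 to 15.1 CPM in CD61high cells, most of it Cd68 (mean 14.2 and 8.07 CPM), with Adgre1 at 0 in every library of both experiments. Of the 6 chondrocyte markers, mainly Sox9, the sum was 39.5 to 48.8 CPM in CD61low and 101 to 118 CPM in CD61high cells. The 6 adipocyte markers summed to 17.5 to 20.6 CPM and 13.5 to 14.6 CPM, nearly all of it Cebpa, with Lep and Cidec at 0. Over days 1, 7, 10 and 14 the macrophage and leukocyte list summed to 15.0 to 15.6, 7.80 to 8.76, 14.7 to 16.2 and 9.73 to 10.8 CPM. It was highest on days 1 and 10, as Ezr was, but its largest gene changed between days. That gene was Fcer1g on day 1 (mean 6.96 CPM), Cd14 on days 7 and 10 (3.12 and 6.08 CPM) and Cd68 on day 14 (3.34 CPM). Tyrobp was at 0 on all these days and in CD61low cells. The chondrocyte list went from 92.1 to 94.3 CPM on day 1 to 70.5 to 71.2 CPM on day 10 and 105 to 124 CPM on day 14, and the adipocyte list from 10.5 to 11.0 CPM on day 1 to 28.6 to 30.6 CPM on day 10 and 17.5 to 19.2 CPM on day 14. The 8 endothelial and the 6 epithelial markers each summed to under 1 CPM in every library of both experiments. The part of these lists in the differences below was not tested, and in bulk RNA fewer cells of a type and less RNA per cell cannot be told apart.

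Over differentiation, Pls3 rose and Fscn1 fell beyond the fold limit by day 14, and 6 of the other genes shifted by less. A gene was called when its adjusted p was below 0.01 and its Log2FC above 1 or below -1, with limma on log2(CPM + 1). Lcp1 never reached 1 CPM and was not tested, so 9 of the 10 genes were tested. Between day 1 and day 14, 2 of the 9 were called, beside 13.4% of all 12725 genes tested. By adjusted p alone, 4 of 9 rose (Pls3, Cd44, Msn and Capg) and 4 of 9 fell (Fscn1, Pdpn, Ezr and Dstn), beside 32.6% and 36% of all genes. The median Log2FC of the 9 was -0.09, and that of all genes -0.03.

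**Figure D1:**
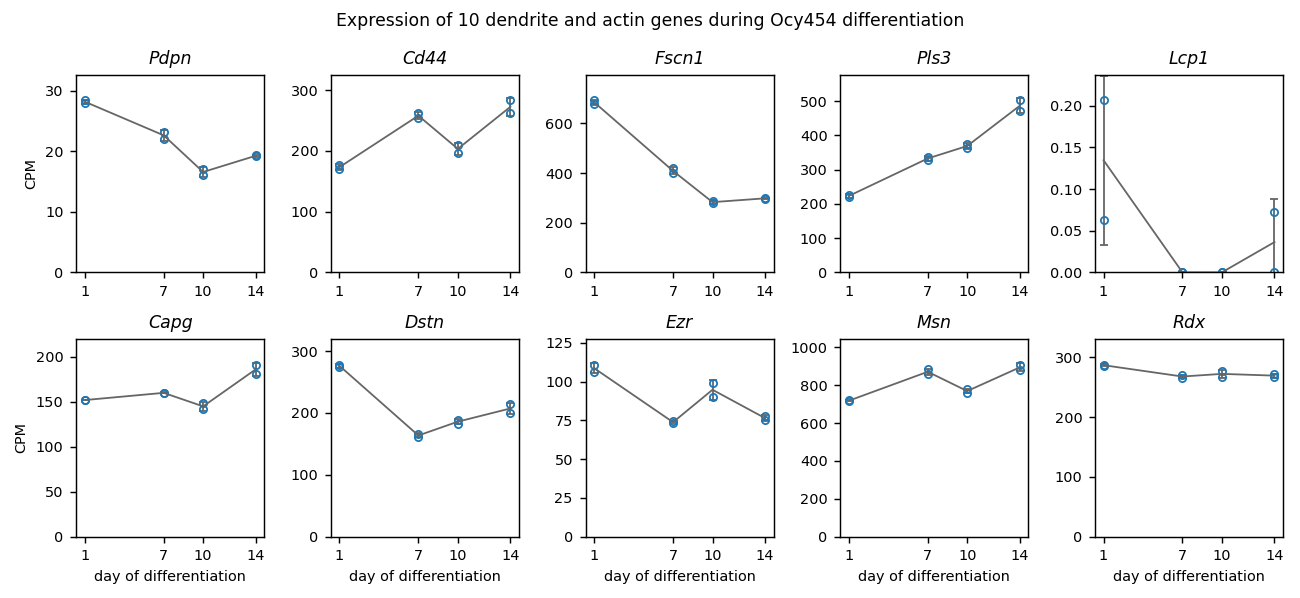
CPM of each of the 10 genes (vertical axes, from 0) against day of differentiation (horizontal axes), with open circles for the 2 libraries per day and lines and bars for mean and SD. Pls3 is highest on day 14 (487 CPM) and Fscn1 on day 1 (685 CPM), Dstn is lowest on day 7, and Lcp1 stays under 0.21 CPM.

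At day 7 against day 1, no gene was called with limma (8 of 9 had an unadjusted p under 0.05, and edgeR on recovered reads also called 0), beside 9.11% of all genes. By adjusted p alone 3 of 9 were higher (Cd44, Pls3 and Msn) and 4 lower (Fscn1, Dstn, Ezr and Pdpn), beside 24.5% and 32% of all genes. At day 10 against day 1, 1 of 9 was called, Fscn1, beside 10.5% of all genes, and by adjusted p alone 2 were higher (Pls3 and Cd44) and 4 lower (Fscn1, Pdpn, Dstn and Ezr), beside 33.1% and 30.3%. The adjusted p of Pdpn at day 7 was 0.0117 without day 7 replicate 2, and Ezr at day 10 moved from -0.20 to -0.13 (adjusted p = 0.0413) without day 10 replicate 2 and had an adjusted p of 0.0180 without day 1 replicate 1. All comparisons with day 1 share its libraries.

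Directions differed between the later intervals. At day 10 against day 7, no gene was called (8 of 9 at an unadjusted p under 0.05 with limma, and 0 called by edgeR), beside 2.22% of all genes. By adjusted p alone 3 were higher (Ezr, Dstn and Pls3) and 5 lower (Fscn1, Pdpn, Cd44, Msn and Capg), beside 29.8% and 18.9%. At day 14 against day 10, again no gene was called (8 of 9 at an unadjusted p under 0.05 with limma, and 0 called by edgeR), beside 2.96% of all genes, and by adjusted p alone 5 were higher (Cd44, Pls3, Capg, Msn and Dstn) and 1 lower (Ezr), beside 22.9% and 30%. These 2 intervals share the day 10 libraries, so opposite directions in them are not independent. Capg at day 10 against day 7 had an adjusted p of 0.0205 to 0.0629 when day 7 replicate 1 or 2 or day 10 replicate 2 was left out.

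Pls3, which encodes plastin 3 (ENSMUSG00000016382, GRCm39 chrX:74829260-74918805, minus strand), increased in each interval. It measured 220 and 227 CPM on day 1, 328 and 337 CPM on day 7, 362 and 376 CPM on day 10, and 471 and 503 CPM on day 14. The values of no 2 days overlapped, and the order followed the days. Log2FC was 1.12 ± 0.04 (SE) at day 14 against day 1 (limma, adjusted p = 2.34e-19), 0.15 ± 0.04 at day 10 against day 7 (adjusted p = 0.00161) and 0.40 ± 0.04 at day 14 against day 10 (adjusted p = 1.71e-09). The middle step was the least firm: its adjusted p was 0.0324 without day 7 replicate 1, 0.0316 without day 10 replicate 2, and 0.0845 with edgeR and TMM.

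Fscn1, which encodes fascin (ENSMUSG00000029581, GRCm39 chr5:142946098-142958953, plus strand), went the other way until day 10. It measured 693 and 677 CPM on day 1, 399 and 418 CPM on day 7, 287 and 278 CPM on day 10, and 297 and 300 CPM on day 14. Log2FC was -1.20 ± 0.04 at day 14 against day 1 (adjusted p = 1.60e-20) and -0.53 ± 0.04 at day 10 against day 7 (adjusted p = 3.92e-12). Days 10 and 14 did not differ by the test (Log2FC 0.08 ± 0.04, adjusted p = 0.0705), though edgeR with TMM gave 0.13 (adjusted p = 0.00374).

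In the sorted cells Pls3 was again higher in the group with more CD61. It measured 164, 147 and 163 CPM in CD61low and 268, 232 and 242 CPM in CD61high cells, with no overlap (Log2FC 0.64 ± 0.08, edgeR, adjusted p = 9.85e-05). Fscn1 measured 415, 398 and 363 CPM in CD61low and 404, 479 and 465 CPM in CD61high cells. The Fscn1 groups overlapped, and its difference of 0.20 ± 0.08 did not pass (adjusted p = 0.0756) and changed sign to -0.10 when only library size was scaled. The ratio of Pls3 to Fscn1 within a library needs no scaling between libraries, and was compared after the values had been seen. Its log2 value went from -1.62 ± 0.05 (SD, n = 2) on day 1 to 0.71 ± 0.06 on day 14, a 5.01-fold rise. In the sort it went from -1.31 ± 0.14 (n = 3) in CD61low to -0.86 ± 0.24 in CD61high cells, a 1.36-fold rise (exact two-sided permutation p = 0.1, the smallest that 3 against 3 allows, among 4 ratios compared, adjusted p = 0.1). The days, at 2 against 2, allow no exact p below 0.333.

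Lcp1, the leukocyte plastin also called L-plastin (ENSMUSG00000021998, GRCm39 chr14:75367978-75468289, plus strand), was barely detected. It had 9 reads over both day 1 libraries, 0 reads on days 7 and 10, which allows up to 0.0486 and 0.0488 CPM, and 2 reads on day 14. In the sort, CD61low libraries held 0.33, 0.33 and 0.54 CPM and CD61high libraries 0.06, 0 and 0.12 CPM, without overlap. The groups held 25 and 3 estimated counts. Per TMM-scaled library total this is a ratio of 6.83 with a 95% interval of 2.09 to 35.4, and per unscaled total 8.41 with an interval of 2.57 to 43.5. The intervals cover counting error only. The macrophage and leukocyte list was higher in the same CD61low libraries, as given above, and its part was not tested. The gene overlaps Lrrc63 on the other strand, and whether counting used strand is not given in the sources used here. Per length, Pls3 made up over 99% of the plastin mRNA (Pls1, Pls3 and Lcp1) in every library.

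Among the ERM genes, moesin rose, ezrin fell and radixin did not pass the test at day 14 against day 1. Msn (ENSMUSG00000031207, GRCm39 chrX:95139129-95212557, plus strand) measured 716 and 720 CPM on day 1, 884 and 859 CPM on day 7, 760 and 779 CPM on day 10, and 910 and 880 CPM on day 14. Day 10 lay between day 1 and the other 2 days. Log2FC was 0.28 ± 0.04 at day 7 and 0.32 ± 0.04 at day 14 against day 1 (adjusted p = 2.17e-07 and 1.63e-08), and 0.12 and 0.21 with quantile normalization. Ezr (ENSMUSG00000052397, GRCm39 chr17:7005440-7050611, minus strand) measured 111 and 106 CPM on day 1, 73.3 and 74.3 CPM on day 7, 99.3 and 90.2 CPM on day 10, and 77.8 and 75.0 CPM on day 14. It was highest on day 1, with day 10 again between day 1 and the other 2 days, and Log2FC was -0.50 ± 0.05 at day 14 against day 1 (adjusted p = 4.10e-10). Rdx (ENSMUSG00000032050, GRCm39 chr9:51958473-52015538, plus strand) measured 286 and 288 CPM on day 1 and between 266 and 277 CPM in every later library. Its Log2FC of -0.09 ± 0.04 at day 14 did not pass (adjusted p = 0.0237), nor did that of -0.10 ± 0.04 at day 7 (adjusted p = 0.0173), which passed with quantile normalization (-0.13, adjusted p = 0.00204) and in a fit on the 4 libraries compared (adjusted p = 0.00378).

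**Figure D2:**
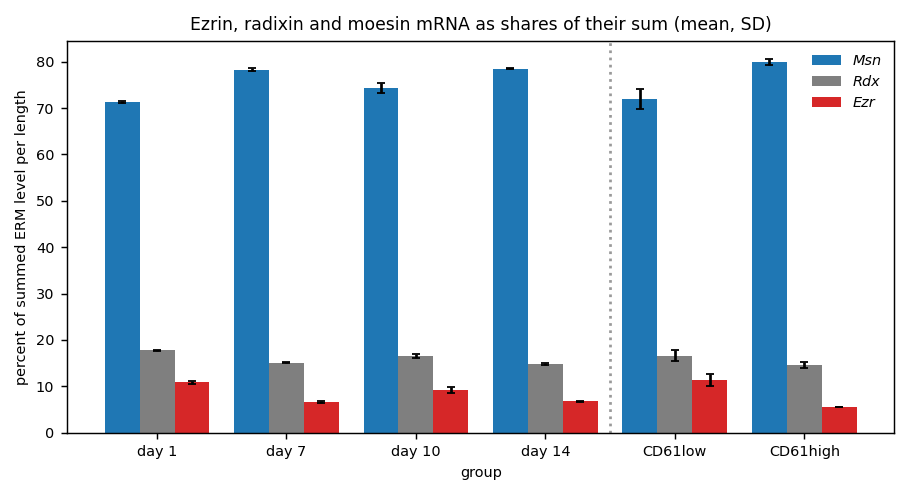
Shares of Msn, Rdx and Ezr in the summed ERM mRNA level per length (vertical axis, percent) in the 4 days (n = 2) and the 2 sorted groups (n = 3, right of the dotted line), with bars for means and error bars for SD. The Ezr share is 10.8% on day 1 and 6.72% on day 14, and 11.4% in CD61low and 5.53% in CD61high cells. Shares on the days use the length of merged exons.

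In the sort Ezr was lower and Msn higher in CD61high cells by adjusted p, neither beyond the fold limit, and Rdx did not pass. Ezr measured 89.6, 103 and 89.2 CPM in CD61low and 53.0, 52.2 and 52.7 CPM in CD61high cells. The groups were far apart and the CD61high libraries nearly identical (Log2FC -0.83 ± 0.08, edgeR, adjusted p = 1.37e-05). With library size alone as scaling, which moves the median of all genes to -0.29, Ezr reached -1.14 and would be called. Relative to that median Ezr was at -0.84, near its TMM value, since this scaling moves all genes together. Msn measured 671, 632 and 715 CPM in CD61low and 868, 856 and 874 CPM in CD61high cells, without overlap (Log2FC 0.37 ± 0.07, adjusted p = 0.00152). With library size alone Msn was at 0.06 (adjusted p = 0.418), which is again 0.36 above the median of all genes, as under TMM. Both matches to TMM follow from the shared shift and do not tell which scaling is right. Without CD61high replicate 3 its adjusted p was 0.0122. Rdx measured 160, 186 and 188 CPM in CD61low and 187, 168 and 188 CPM in CD61high cells, which overlapped (Log2FC 0.02 ± 0.08, adjusted p = 0.843, and -0.28 with library size alone).

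The balance within the family needs no scaling between libraries. The log2 ratio of Msn to Ezr counts was 2.69 and 2.76 on day 1, 3.59 and 3.53 on day 7, 2.94 and 3.11 on day 10, and 3.55 and 3.55 on day 14. It was 2.90, 2.62 and 3.00 in CD61low and 4.03, 4.04 and 4.05 in CD61high cells, so that the groups stood 2.30-fold apart (exact two-sided permutation p = 0.1, the smallest possible). The ratio of Rdx to Ezr rose 1.81-fold in the sort (exact permutation p = 0.1) and 1.34-fold from day 1 to day 14. Per length, Msn held 71.4% ± 0.25 (SD, n = 2) of the ERM mRNA on day 1 and 78.5% ± 0.13 on day 14, and 72.0% ± 2.19 (n = 3) in CD61low and 79.9% ± 0.58 in CD61high cells. Ezr fell from 10.8% ± 0.34 to 6.72% ± 0.03, and from 11.4% ± 1.34 to 5.53% ± 0.09, in the same comparisons, and Rdx held 14.5% to 17.8% in all groups. The shares on the days hold for the length of merged GENCODE M39 exons and depend on it. With merged exons, day 14 levels were 128 (Msn), 24.0 (Rdx) and 10.9 (Ezr) CPM per kilobase. With the length the authors list they were 138, 55.8 and 23.3, which makes the Msn share smaller and the other shares larger. Reads of Ezr could include some from Sytl3, which overlaps it on the other strand.

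Capg and Dstn act on filament ends and turnover. Capg (ENSMUSG00000056737, GRCm39 chr6:72514955-72539970, plus strand) measured 152 and 152 CPM on day 1, 160 and 160 CPM on day 7, 148 and 142 CPM on day 10, and 181 and 191 CPM on day 14. Only day 14 differed from day 1 by the test (Log2FC 0.29 ± 0.04, adjusted p = 2.92e-07), and days 7 and 10 did not pass against day 1 (adjusted p = 0.103 and 0.125), although edgeR with TMM passed day 7 (Log2FC 0.12, adjusted p = 0.00712). In the sort Capg measured 105, 106 and 90.2 CPM in CD61low and 145, 163 and 157 CPM in CD61high cells, without overlap (Log2FC 0.62 ± 0.08, adjusted p = 1.71e-04). Its rise in the sort was about as large as that of Pls3, and with library size alone both remained higher, at 0.32 for Capg and 0.34 for Pls3.

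Dstn (ENSMUSG00000015932, GRCm39 chr2:143756845-143786267, plus strand) fell early and regained part of its level. It measured 274 and 278 CPM on day 1, 166 and 161 CPM on day 7, 183 and 189 CPM on day 10, and 201 and 214 CPM on day 14. Log2FC was -0.75 ± 0.04 at day 7 against day 1 (adjusted p = 3.00e-15) and -0.41 ± 0.04 at day 14 against day 1 (adjusted p = 4.13e-10). The rises from day 7 to day 10 (0.18 ± 0.04, adjusted p = 2.38e-04) and from day 10 to day 14 (0.16 ± 0.04, adjusted p = 0.00116) were small, the first with an adjusted p of 0.0149 under edgeR with TMM and the second with one of 0.0218 without day 10 replicate 1 and 0.0227 without day 14 replicate 2. In the sort Dstn measured 148, 159 and 144 CPM in CD61low and 158, 157 and 157 CPM in CD61high cells, which overlapped (Log2FC 0.07 ± 0.07, adjusted p = 0.424, and -0.23 with library size alone). Per length, its share of the ADF/cofilin mRNA, which also counts Cfl1 and Cfl2, was 23.6% ± 0.54 (SD, n = 2) on day 1, 17.1% ± 0.57 on day 7 and 22.2% ± 0.77 on day 14. These shares on the days hold for the length of merged exons. With it the Dstn level on day 14 was 40.1 CPM per kilobase, against 109 with the length the authors list. In the sort the share was 29.4% ± 1.20 (n = 3) in CD61low and 25.6% ± 1.52 in CD61high cells, and the ratio of Dstn to Cfl1 was 0.798 of that in CD61low cells (exact permutation p = 0.1).

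Of the membrane genes, Pdpn decreased and Cd44 increased over differentiation. Pdpn (ENSMUSG00000028583, GRCm39 chr4:142990871-143026143, minus strand) measured 28.4 and 28.0 CPM on day 1, 23.2 and 22.0 CPM on day 7, 16.1 and 17.1 CPM on day 10, and 19.4 and 19.2 CPM on day 14. Day 10 was lowest (Log2FC -0.73 ± 0.07 against day 1, adjusted p = 8.56e-10) and day 14 remained below day 1 (-0.53 ± 0.07, adjusted p = 2.43e-07). The rise from day 10 to day 14 did not pass (0.21 ± 0.07, adjusted p = 0.0140), though edgeR with TMM passed it (0.27, adjusted p = 0.00278). In the sort Pdpn measured 15.2, 16.2 and 15.2 CPM in CD61low and 11.7, 12.1 and 9.53 CPM in CD61high cells, without overlap (Log2FC -0.48 ± 0.12, adjusted p = 0.00793). This was a narrow pass: leaving out any 1 library except CD61high replicate 2 put the adjusted p between 0.0118 and 0.0346, and a block on the replicate number put it at 0.0132. With library size alone the difference was -0.78.

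Cd44 (ENSMUSG00000005087, GRCm39 chr2:102641486-102732010, minus strand) measured 170 and 176 CPM on day 1, 262 and 254 CPM on day 7, 197 and 210 CPM on day 10, and 262 and 283 CPM on day 14. It dipped at day 10, as Msn did, and Log2FC was 0.65 ± 0.04 at day 14 against day 1 (adjusted p = 2.24e-13). In the sort Cd44 measured 135, 135 and 146 CPM in CD61low and 158, 149 and 166 CPM in CD61high cells. The groups did not overlap, but the difference of 0.19 ± 0.07 did not pass (adjusted p = 0.0470) and was -0.11 with library size alone.

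In the sorted libraries the reads were assigned to transcripts, and for Pdpn and Cd44 these differ by coding exons and by the length of the models used. Pdpn-201 includes exon 4 of 6, a coding exon of 39 bases (GRCm39 chr4:142997093-142997131, minus strand), which Pdpn-202 lacks. Cd44-207 includes 5 variant exons of 636 bases in all, between 102661675 and 102672722 on chromosome 2, which Cd44-203 skips. The first sequence shows the Pdpn exon in capitals with 20 bases of each neighbouring exon, and the second the Cd44-203 junction, with the last 20 bases of exon 5 in lower case and the first 20 bases of exon 6 of 9 in capitals, both from the GENCODE M39 transcripts and in the 5′ to 3′ direction of the mRNA.
Pdpn-201: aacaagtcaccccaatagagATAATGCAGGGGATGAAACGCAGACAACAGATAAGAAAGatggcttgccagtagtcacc
Cd44-203: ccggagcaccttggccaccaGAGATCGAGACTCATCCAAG

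Pdpn-202, without the exon, took 22.1%, 18.8% and 20.2% of Pdpn TPM (length-corrected abundance, scaled to 1000000 per library) in CD61low and 18.4%, 0% and 0% in CD61high libraries. The groups did not overlap, the means were 20.4% ± 1.67 (SD, n = 3) and 6.14% ± 10.6, and the exact two-sided permutation p was 0.1, the smallest possible, or 0.65 after adjustment over 13 transcripts. Pdpn-202 was low, at 3.98 ± 0.177 TPM in CD61low and 0.752 ± 1.30 TPM in CD61high cells. The Pdpn-202 model used for the estimates is 762 bases long, against 1817 for Pdpn-201. The exon and the longer model of Pdpn-201 therefore cannot be told apart in these shares. Where along the gene the reads fell was not measured here. Cd44-207 took 60.5% ± 6.81 in CD61low and 60.5% ± 9.43 in CD61high cells, and Cd44-203 36.9% ± 6.38 and 37.6% ± 10.7, with no detectable difference at 3 against 3 (exact permutation p = 1 and 0.9). The Cd44-203 model is 2848 bases long and the Cd44-207 model 5045, so variant exons and the longer end of Cd44-207 cannot be told apart in these shares. The other genes showed 1 or 2 main transcripts. Since 3 against 3 allows no exact p below 0.1, their shares are descriptions and no stability is read from them. Ezr-201 and Dstn-201 took 100% in every library. Msn-201 took 98.9% and 99.1%, Pls3-204 92.5% and 93.4%, and Capg-201 92.5% and 94.3% in CD61low and CD61high cells. Fscn1-207 took 52.3% ± 1.80 and 56.6% ± 3.22, and Rdx-201 60.5% ± 1.89 and 56.3% ± 5.11 (exact permutation p = 0.2 and 0.3).

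**Figure D3:**
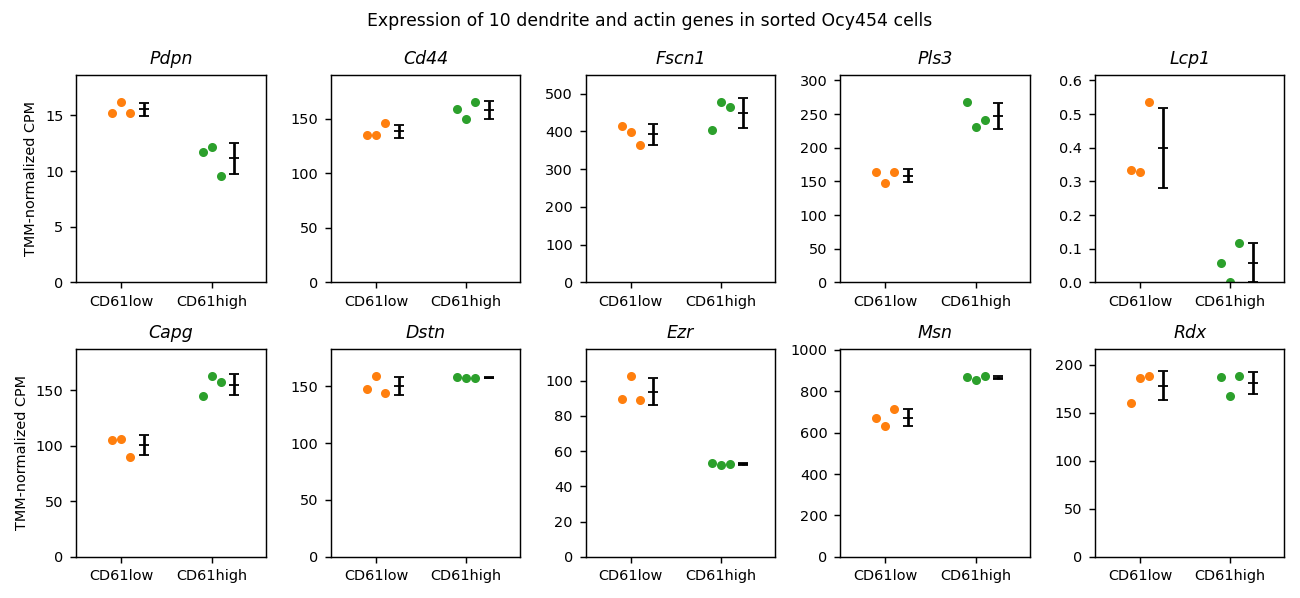
TMM-scaled CPM of each of the 10 genes (vertical axes, from 0) in the 3 CD61low (orange) and 3 CD61high (green) libraries, with black marks for mean and SD. Ezr and Pdpn are lower and Pls3, Capg and Msn higher in CD61high libraries without overlap, while Fscn1, Dstn and Rdx overlap. Cd44 (higher) and Lcp1 (lower) also do not overlap, but Cd44 did not pass by adjusted p and Lcp1 was not tested.

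Counted together, no gene of the set was called in CD61high against CD61low cells with edgeR (7 of 9 had an unadjusted p under 0.05, and DESeq2 also called 0), beside 9.22% of all 12077 genes tested. By adjusted p alone 3 of 9 were higher (Pls3, Capg and Msn) and 2 lower (Ezr and Pdpn), beside 19.4% and 16% of all genes. The median Log2FC of the 9 was 0.19 and that of all genes 0.00. Scaling mattered for the direction of the smaller differences. With library size alone the median of all genes moved to -0.29 and the higher share of all called genes from 52.6% to 24.7%, and Cd44, Fscn1, Dstn and Rdx changed sign. Relative to the median of all genes, each of the 9 genes lay within 0.01 of its TMM value. This follows from a shift shared by all genes, so it does not tell which scaling is right. The 5 genes that passed by adjusted p kept their direction under each scaling tried.

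**Figure D4:**
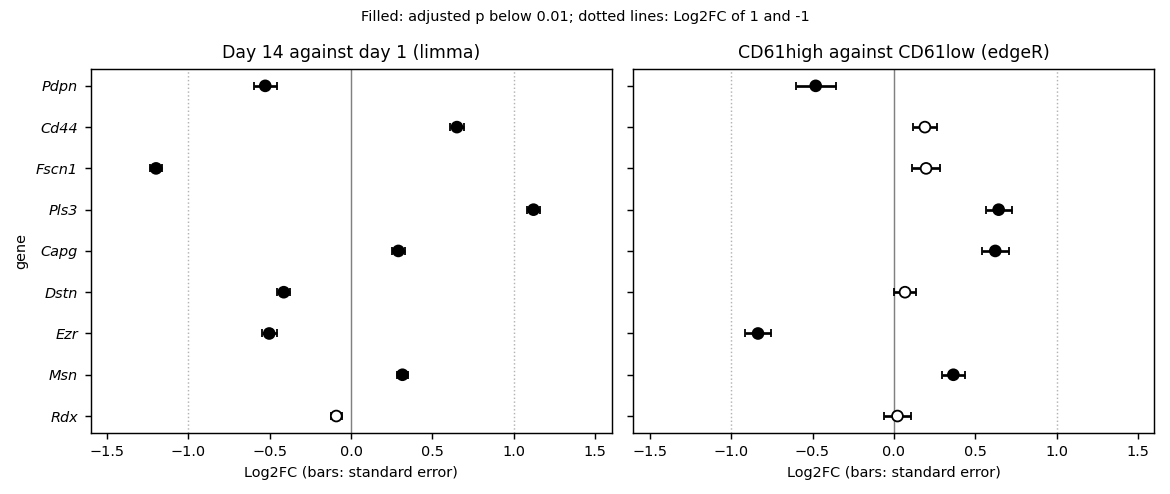
Log2FC of the 9 tested genes at day 14 against day 1 (left, limma) and in CD61high against CD61low cells (right, edgeR), with standard errors as bars and filled points for an adjusted p below 0.01. Pls3 (1.12) and Fscn1 (-1.20) pass the dotted lines on the left, and no gene does on the right, where Ezr is lowest (-0.83).

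**Figure D5:**
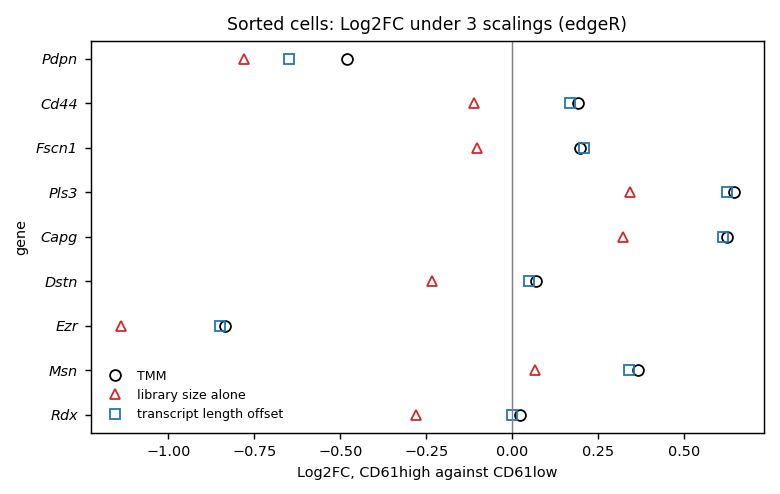
Log2FC of the 9 tested genes in CD61high against CD61low cells (horizontal axis) with TMM scaling (circles), library size alone (triangles) and an offset for transcript length (squares). Triangles lie to the left of circles for every gene, and Cd44, Fscn1, Dstn and Rdx cross 0.

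Levels of different genes can be compared only per length. In TPM, Msn was highest in both sorted groups (349 ± 29.3 in CD61low and 360 ± 17.9 in CD61high, SD, n = 3), followed by Fscn1 (290 ± 12.7 and 273 ± 19.3), Capg (179 ± 12.4 and 222 ± 8.14), Dstn (162 ± 8.07 and 137 ± 6.97) and Pls3 (96.9 ± 6.26 and 122 ± 15.7). TPM are not TMM-scaled, and the median log2 ratio of TPM (CD61high over CD61low) over all 12077 genes tested was -0.31, so these values order the genes within a group and their differences between groups carry that shift. Cd44, Fscn1, Dstn and Rdx were lower in CD61high cells in TPM but lay above that median, as in the TMM values. Dstn and Capg lay within their spread of each other in CD61low cells and apart in CD61high cells, and Dstn and Pls3 lay within it in CD61high cells. Rdx (80.4 ± 9.08 and 65.5 ± 6.66) and Cd44 (68.5 ± 7.30 and 62.7 ± 7.78) could not be ordered. Ezr (54.9 ± 4.89 and 24.9 ± 1.05), Pdpn (19.6 ± 0.742 and 10.2 ± 2.01) and Lcp1 (0.201 ± 0.0637 and 0.0337 ± 0.0333) were the lowest, in that order. In CPM per kilobase of merged GENCODE M39 exons, Fscn1 led on day 1 (226 ± 3.55, SD, n = 2) ahead of Msn (103 ± 0.411), and on day 14 Msn (128 ± 3.05) led Fscn1 (98.5 ± 0.691) and Pls3 (70.8 ± 3.24). The order below Msn on day 14 depends on the length used, since Dstn ranked 6 with merged exons and 2, ahead of Fscn1 and Pls3, with the length the authors list. The day 1 order, with Msn after Fscn1, is given for merged exons only. Dstn has 5175 bases of these against 1907 in the length the authors list.

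A further 5 lists hold other genes of the same pathways. Of 19 tested genes for other actin bundlers and crosslinkers, 4 were called lower and none higher at day 14, with a median Log2FC of -0.25 against -0.03 for all genes. The muscle-type filamin Flnc (-1.52 ± 0.05, adjusted p = 9.89e-21) and Marcks, a membrane-bound actin crosslinker (-1.29 ± 0.04, adjusted p = 2.30e-21), fell most. In the sort 2 of 19 were called, both lower, Flnc (-1.77 ± 0.11, adjusted p = 9.03e-07) and the filament capper and bundler Eps8 (-1.46 ± 0.11, adjusted p = 3.80e-06), with a median of -0.06 against 0.00. Neither Marcks nor Eps8 kept its direction in the other experiment, where Marcks was 0.27 ± 0.07 in the sort (adjusted p = 0.00798) and Eps8 0.25 ± 0.07 at day 14 (adjusted p = 0.00294). Among 17 tested severing, capping and monomer-binding genes, 3 were called at day 14 (1 up, 2 down) and 3 in the sort (2 up, 1 down). The list's median was -0.22 at day 14 and 0.18 in the sort. Gsn, the filament-severing gelsolin, rose in both (1.43 ± 0.04 and 1.52 ± 0.07, adjusted p = 4.29e-22 and 3.11e-07), from 389 to 1048 CPM over differentiation and from 379 to 1085 CPM in the sort. Svil (supervillin) fell over differentiation (-1.59 ± 0.05, adjusted p = 2.68e-19) and Avil (advillin) was lower in CD61high cells (-1.61 ± 0.07, adjusted p = 2.50e-07). Both were also lower in the other experiment, short of the fold limit. Svil was -0.79 ± 0.12 in the sort (adjusted p = 2.72e-04) and Avil -0.34 ± 0.04 at day 14 (adjusted p = 1.70e-07).

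Of 18 tested genes for filopodia and actin nucleation, 1 was called in each experiment, and it was Evl, an Ena/VASP protein that promotes filament elongation (1.23 ± 0.04, adjusted p = 2.02e-19 at day 14, and 1.09 ± 0.07, adjusted p = 9.99e-07 in the sort). The list's median was -0.22 at day 14 and 0.15 in the sort. In the sort that call was lost with an offset for transcript length, and 3 genes of the list were called without CD61low replicate 3. Of the ERM regulators and membrane partners, 2 of 12 tested were called at day 14, the tetraspanin gene Cd9 (1.90 ± 0.04, adjusted p = 3.16e-24) and Spn, which encodes CD43 (1.39 ± 0.08, adjusted p = 1.86e-14), and 2 of 13 in the sort, Cd9 (1.40 ± 0.07, adjusted p = 3.69e-07) and Selplg, all higher. Selplg was low, at 2.07 CPM in CD61high and 0.479 CPM in CD61low cells, under the 5 CPM set for named genes. The list's median Log2FC was 0.32 at day 14 and 0.24 in the sort. Of 11 tested genes for hyaluronan and other CD44 ligands, 4 were called at day 14 (1 up, 3 down) and 4 in the sort (2 up, 2 down). The list's median was -0.40 at day 14 and 0.41 in the sort. The hyaluronan link protein gene Hapln1 rose from 11.9 to 65.2 CPM (2.36 ± 0.06, adjusted p = 2.17e-22) and Cemip2, whose product has been linked to hyaluronan breakdown, fell from 265 to 68.9 CPM (-1.93 ± 0.04, adjusted p = 6.10e-24). In CD61high cells Spp1, the osteopontin gene (1.79 ± 0.08, adjusted p = 2.68e-07), and Cemip, a hyaluronan-degrading factor (1.41 ± 0.19, adjusted p = 1.43e-04), were higher. The other genes called, named after their values were seen, were Flna and Marcksl1 (lower at day 14), Pfn2 (lower at day 14), Tmsb10 (higher in the sort), and Has2 and Vcan (lower in both). In the sort Has2 averaged 1.03 CPM in CD61high and 3.51 CPM in CD61low cells, and Vcan 1.32 and 5.59 CPM. The lists' called shares stand beside 13.4% of all genes at day 14 and 9.22% in the sort.

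Many genes followed the courses of Fscn1 and Pls3. Over the 8 differentiation libraries and 10313 genes averaging 5 CPM or more, the log2(CPM + 1) values most like those of Fscn1 were those of Igfbp4 (Pearson r = 0.999), Gss (r = 0.998) and Acot7 (r = 0.997), and 406 genes had an r above 0.95. For Pls3 the nearest were Zdhhc14 (r = 0.999), Prr5l (r = 0.997) and Zfp467 (r = 0.997), with 401 genes above 0.95. Zdhhc14 went from 0.292 to 16.8 CPM. In the sort Igfbp4, which encodes an IGF-binding protein, was lower in CD61high cells (-0.97, adjusted p = 4.00e-05), where the difference of Fscn1 did not pass, and Zdhhc14 was higher (1.08, adjusted p = 1.78e-04), as Pls3 was. The r values are descriptions, since the 8 points share 4 days.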

How the data were processed

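RNA-sequencing of 14 libraries of mouse Ocy454 cells was analysed, grouped by their labels. For differentiation, the authors deposited CPM made with STAR and HTSeq, and 100% of values were whole reads within 0.01. For the sort, the authors deposited Salmon estimated counts and TPM per transcript (GRCm39). Estimated counts were summed to genes (GENCODE M39), which matched 99.3% to 99.4% of counts, and rounded. The versions of STAR, HTSeq and Salmon and the strand settings are not given in the sources used here. The deposited gene length column in bases was used only for ranks.

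CPM were tested as log2(CPM + 1) with limma 3.58.1 (eBayes with trend, all 8 libraries) for 12725 genes above 1 CPM in at least 1 library. Sorted counts were tested with edgeR 4.0.16 (quasi-likelihood, TMM over all genes) for 12077 genes that reached 5 normalized counts in each of the 6 libraries. P-values were adjusted by Benjamini-Hochberg over all genes tested, in R 4.3.3. Shares and ratios were compared with an exact permutation test. A gene at 0 reads may be present at up to 3 reads. Both scripts were tested on simulated data. DESeq2 1.42.0, other scalings, pseudocounts, filters, a replicate block and leaving out each replicate were alternatives.

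The 10 genes and the lists were chosen with earlier results of these data known, and the ratios after seeing the values. Named genes were all 10, the 2 called genes of each list with the largest non-overlapping change at 5 CPM or more, per experiment, and the 3 genes most like each gene called at day 14. Replicates were biologic replicates for differentiation and independent groups of cells for the sort. The 2 experiments used different RNA kits and quantification, so levels were compared only within each.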

Additional observations from a re-analysis of the deposited data

How the results depend on the processing

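The calls of Pls3 and Fscn1 at day 14 and of Fscn1 at day 10 against day 1 were kept under every scaling, filter, pseudocount and left-out library tried. Without the fold limit the members passing by adjusted p were 7, 6, 8, 8 and 6 in the comparisons of day 7, 10 and 14 with day 1, day 10 with 7 and day 14 with 10, and 5 in the sort. Over the differentiation comparisons, of the single-gene values under another setting 383 kept direction and side of the threshold, 13 lost and 6 gained the threshold and 3 changed sign, and with a library left out 168 kept, 10 lost and 2 changed sign. In the sort, with the 7 settings other than library size alone and the test against a Log2FC of 1, 61 of 63 values kept both, Pdpn lost the threshold with a replicate block and Rdx changed sign with a length offset. With a library left out 45 kept both, 6 lost the threshold and 3 changed sign. The cause of these changes was not tested. Library size alone moves all genes together, and no member can pass a test against a Log2FC of 1 with a smaller estimate, so those 2 settings are not counted.

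Of the sign changes, those over differentiation were all under 0.05 in size after the change, and those with library size alone in the sort were larger. Msn at day 10 against day 1 was -0.016 with quantile normalization. Rdx with edgeR and TMM was -0.048 at day 10 against day 7 and 0.041 at day 14 against day 10, and ranged over left-out libraries from -0.00078 to 0.048 and from -0.040 to 0.0087. In the sort with library size alone, 1 member (Ezr) was called, lower, beside 316 genes called higher and 963 lower of all 12045 tested. With that scaling Cd44 was -0.11, Fscn1 -0.10, Dstn -0.23 and Rdx -0.28. Rdx in the sort was -0.0010 with the length offset and ranged from -0.056 to 0.073 over left-out libraries.

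Among the lists in the sort, filopodia genes called were 0 with the length offset and 0 when tested against a Log2FC of 1, and 1 to 3 over left-out libraries, while ERM partners and hyaluronan genes called against that limit were 1 and 1. Of all 12077 genes, 188 were called higher and 213 lower against that limit, and 536 and 485 with the length offset. Without CD61low replicate 3, 591 were called higher and 530 lower of 12114. The share of Cd44-203 (high minus low) ranged over left-out libraries from -2.98 to 6.81, that of Cd44-207 from -5.37 to 3.65 and that of Pls3-204 from -0.90 to 1.92 percentage points. Without CD61high replicate 1 the Rdx-201 difference moved from -4.20 to -1.77, and without CD61high replicate 2 it was -6.87. The Capg-201 difference moved from 1.81 to 3.07 and 0.22 without the same libraries, and that of Msn-201 from 0.22 to a range of 0.051 to 0.37.

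Same-numbered replicates correlated at 0.006 to 0.0866 in the differentiation comparisons and at -0.358, 0.325 and -0.0759 in the sort. The highest correlations of CD61high replicates 1, 2 and 3 with a CD61low replicate of another number were 0.503, 0.147 and 0.195. Neither the labels nor the methods pair the numbers, so they were not taken as pairs. With 3 libraries per gate these correlations cannot exclude pairing. With a replicate block the number of members called stayed at 0, 1, 2, 0, 0 and, in the sort, 0, and the block moved only Pdpn in the sort across the threshold (-0.49, adjusted p = 0.0132).

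Depth limited Lcp1, where 3 reads are worth about 0.05 CPM over a group. The exact tests of shares and ratios were limited by group size, since 3 against 3 libraries cannot give a p below 0.1 and 2 against 2 none below 0.333.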
